A study of Rattus norvegicus with 14 samples.

Results

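Microglia are the resident macrophages of the brain, and the 7 genes described here mark them or belong to the complement system they supply: C1qa, C1qb, Csf1r, Cx3cr1, Ctss, Cd74 and Aif1. Every probe set whose array annotation names one of these genes alone was taken, which gave 8 probe sets for the 7 genes out of 15923 probe sets on the array. A probe set is a group of short array features that together report one stretch of a transcript. Of the 8, 5 lay above the cutoff for dim probe sets, a mean log2 level of 3.88 over all arrays, and measured Ctss, Csf1r, C1qa, C1qb and Aif1. The remaining 3, for Cd74, Cx3cr1 and a second probe set of Aif1, were dim, so the array does not show that those transcripts were above background.

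Microglia survive through signals from the receptor Csf1r and listen to neurons through the fractalkine receptor Cx3cr1. They are the main source of C1q in the brain, the protein that starts the classical complement pathway and that can tag synapses for removal. C1q is built from A, B and C chains, encoded by neighbouring genes, and the complex needs all of them. Cd74 is the invariant chain that guides MHC class II molecules, Ctss is the lysosomal protease that trims it, and Aif1 encodes the calcium-binding protein Iba1, a common stain for microglia.

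RNA came from the microdissected CA3 field of the hippocampus of young male Long-Evans rats, aged 3 to 4 months, on 1 Affymetrix RAE230A array per animal. All animals had been trained in a standard water maze and swam 8 further trials in an unfamiliar maze 2 to 3 weeks later. The learning group of 7 rats had orienting cues and a visible platform that kept its place. The control group of 7 rats had a visible platform that moved from trial to trial and no informative cues. Both groups had a 90 s probe trial 1 h after the last trial, and tissue was taken straight afterwards, so both had swum, and cues and platform position differed together. The question put to these genes was whether their transcripts in CA3 differed between the groups. The tissue holds all cell types of the dissected field, so fewer microglia and less RNA per microglial cell cannot be told apart.

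None of the 7 genes passed the test. In limma, 0 of the 5 tested probe sets had an adjusted p under 0.05, where 3.35% of all 9520 tested probe sets did (2.55% were higher in the learning group and 0.798% were lower). Without a dim filter 0 of the 8 passed, where 0.996% of the 15866 probe sets did. Before adjustment, 1 of the 5 had p under 0.05, C1qa, where 19.9% of all tested probe sets passed and 10.6% did so in its direction. The groups overlapped in all 8 probe sets, whereas they did not overlap in 2.1% of those tested on the array. Of the 5, 3 had a difference below 0, where 58% of all tested probe sets had. The median log2 difference, learning minus control, was -0.09 over the 5 and -0.02 over all tested probe sets. A member was called only in fits that left out control replicate 5, alone or with learning replicate 1, and it was C1qa. In the text below, every level is a log2 GCRMA value, every difference is learning minus control on that scale, and intervals are 95% intervals of limma that are not adjusted for the number of probe sets.

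**Figure D1:**
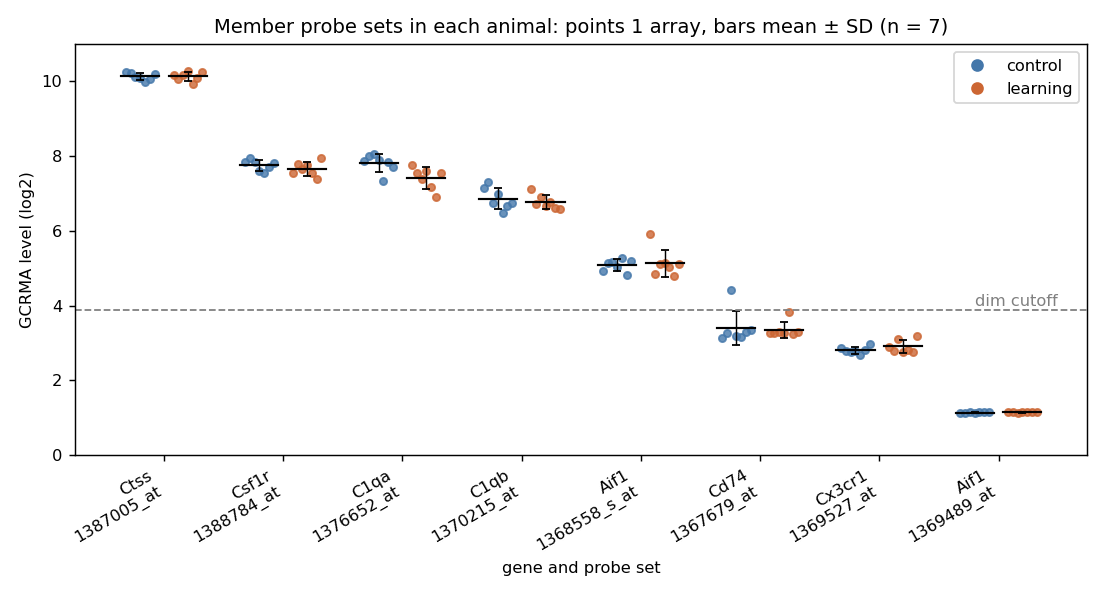
Log2 GCRMA level (vertical axis) of the 8 probe sets of the member genes in each of the 14 animals, with the probe sets on the horizontal axis. Points are arrays, bars are means with SD (n = 7 per group), and the dashed line is the dim cutoff of 3.88. The groups overlap in every probe set, and those of Cd74, Cx3cr1 and the second Aif1 probe set have means below the line.

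C1qa and C1qb lie on chromosome 5 with the gene of the third chain, C1qc, between them in the RefSeq annotation of assembly GRCr8. The start regions of C1qa and C1qb are shown because these 2 genes encode chains of 1 complex and stood at different distances from 0 in the comparison. The gap between these distances did not pass (exact permutation, adjusted p = 0.108). Each run holds 250 bases before to 50 bases after the gene's start, from RefSeq, 5′ to 3′ on the minus strand on which both genes lie. Capitals mark matches to GAGGAA, a sequence bound by PU.1, a factor of the macrophage lineage, on either strand.
C1qa, chr5:154419884-154420183: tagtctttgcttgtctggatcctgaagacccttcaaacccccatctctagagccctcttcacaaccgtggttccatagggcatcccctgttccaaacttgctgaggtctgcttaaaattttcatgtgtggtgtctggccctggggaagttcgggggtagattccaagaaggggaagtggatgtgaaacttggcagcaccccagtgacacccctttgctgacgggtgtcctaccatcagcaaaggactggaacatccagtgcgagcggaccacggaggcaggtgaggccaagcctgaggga
C1qb, chr5:154407778-154408077: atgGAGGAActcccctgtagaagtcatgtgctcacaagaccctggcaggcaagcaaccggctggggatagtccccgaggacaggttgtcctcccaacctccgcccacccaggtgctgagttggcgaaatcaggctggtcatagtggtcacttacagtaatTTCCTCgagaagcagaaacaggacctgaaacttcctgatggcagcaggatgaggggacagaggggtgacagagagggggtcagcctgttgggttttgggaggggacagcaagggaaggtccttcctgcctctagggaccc
The C1qb region held 2 matches to GAGGAA, which begin at positions -247 and -90 from the start, the second on the reverse strand. The C1qa region, printed without capitals, held none, which says only that these letters are not in this window. Of 33469 rat start regions of the same length, 27.6% held GAGGAA at least once. The composite site for ETS and IRF factors, found in 2.94% of the regions, was in neither. Among the other members, the region of Csf1r held 2 matches to GAGGAA, that of Ctss 1 and that of Cx3cr1 0. Cd74 held 1 match to each motif. The 2 matches of C1qb do not overlap each other, and a match is a run of letters and not a measured binding site. A link between matches and differences was not tested.

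Among the complement members, C1qa, the A chain, had the largest difference of the 5 tested probe sets. In control animals its level ran from 7.34 over a median of 7.86 to 8.07, and in learning animals from 6.91 over a median of 7.54 to 7.76. All 7 learning animals lay below the control mean, 2 of them below every control, and 5 controls lay above every learning animal, while the control animal of replicate 5 lay low among the learning animals. The means were 7.82 ± 0.24 and 7.42 ± 0.29 (SD, n = 7 each), a difference of -0.40 (SE 0.13, interval -0.67 to -0.12), which is 0.758 of the control level. This did not pass the adjusted threshold in limma (unadjusted p = 0.00738, adjusted p = 0.102), and C1qa ranked 690 of 9520 probe sets by p. Among 1781 tested probe sets within 0.5 of its mean level, 0.674% were called lower. Assigning the 14 arrays to the groups in all 3432 ways gave a two-sided exact permutation p of 0.0146 with no adjustment. Without control replicate 5 the difference was -0.48 and was called (adjusted p = 0.0433), and without each of the other 13 arrays in turn it was not.

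C1qb, the B chain, had control levels from 6.47 over 6.76 to 7.30 and learning levels from 6.59 over 6.71 to 7.12. Every learning animal lay inside the range of the controls. Its means of 6.87 ± 0.29 and 6.77 ± 0.19 gave a difference of -0.10 (SE 0.12, interval -0.35 to 0.16, adjusted p = 0.696). C1qc is not a member by the rule but completes the protein, and it had 5.15 to 5.93 (median 5.43) in control and 5.09 to 5.40 (median 5.36) in learning animals. All 7 learning animals lay below its control mean, which was raised by the high levels of control replicates 2 and 3. The difference was -0.22 (SE 0.11, interval -0.45 to 0.01, adjusted p = 0.277). The 3 chains thus had differences of -0.40, -0.22 and -0.10 with overlapping intervals, and control replicate 5 was the lowest control for each of them, as it also was for Csf1r and Ctss.

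**Figure D2:**
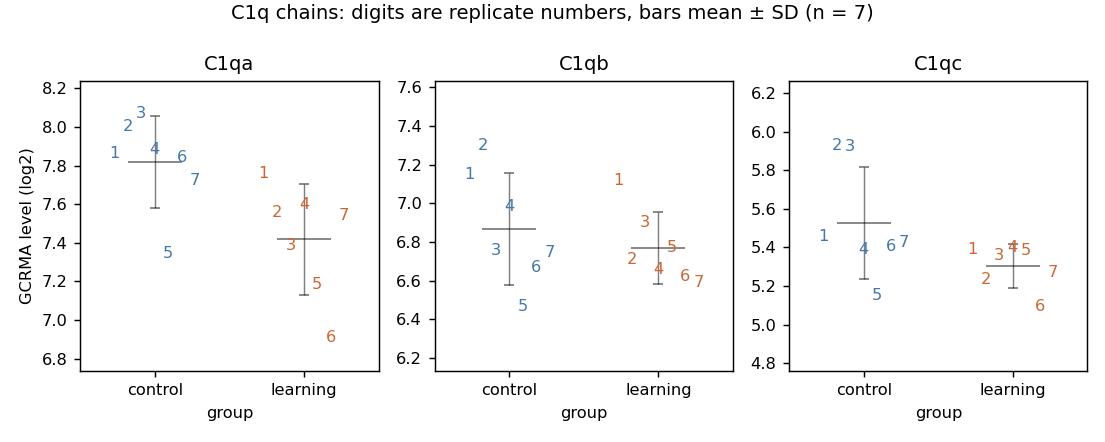
Log2 GCRMA level of C1qa, C1qb and C1qc (1 panel each, vertical axes of equal span) in control and learning animals, where each digit is an animal's replicate number and bars are means with SD (n = 7). For C1qa, 5 controls lie above all learning animals and control replicate 5 lies among them, while for C1qb and C1qc the learning animals lie mostly within the control range.

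Csf1r, the receptor for the growth factors Csf1 and Il34 that keep microglia alive, had levels of 7.54 to 7.95 (median 7.80) in control and 7.39 to 7.96 (median 7.67) in learning animals. The highest and the lowest animal were both of the learning group. Its means were 7.76 ± 0.15 and 7.67 ± 0.19, a difference of -0.09 (SE 0.0845, interval -0.27 to 0.09, adjusted p = 0.591).

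Ctss, the cathepsin used widely as a microglial transcript in brain, was the steadiest of the 5. It ran from 9.99 over 10.12 to 10.25 in control and from 9.93 over 10.17 to 10.28 in learning animals, a spread of only 0.344 over all 14 arrays against 1.16 for C1qa. The difference was 0.0034 (SE 0.0570, interval -0.12 to 0.12, adjusted p = 0.982). On the fold scale the interval runs from 0.921 to 1.09, and differences inside it cannot be seen with these arrays.

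Aif1 was measured at 4.83 to 5.28 (median 5.13) in control and 4.79 to 5.91 (median 5.10) in learning animals. The animal at 5.91, learning replicate 1, stood well above the rest, and no other learning animal was above 5.13. The means were 5.08 ± 0.16 and 5.13 ± 0.37, a difference of 0.05 (SE 0.14, interval -0.24 to 0.35, adjusted p = 0.873), and it was -0.08 without that animal (adjusted p = 0.658). The second probe set of Aif1 lay between 1.12 and 1.16 on every array, near the bottom of the array's scale, and gives no reading of the gene.

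Both remaining members were dim and are given as values. Cd74 had 3.12 to 4.41 (median 3.27) in control and 3.23 to 3.84 (median 3.27) in learning animals. Control replicate 3 and learning replicate 5 stood alone at 4.41 and 3.84, and the other 12 arrays lay between 3.12 and 3.35. Cx3cr1 had 2.67 to 2.97 (median 2.79) in control and 2.77 to 3.19 (median 2.82) in learning animals. Tested without a dim filter, neither passed in limma (adjusted p = 0.956 for Cd74 and 0.606 for Cx3cr1).

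**Figure D3:**
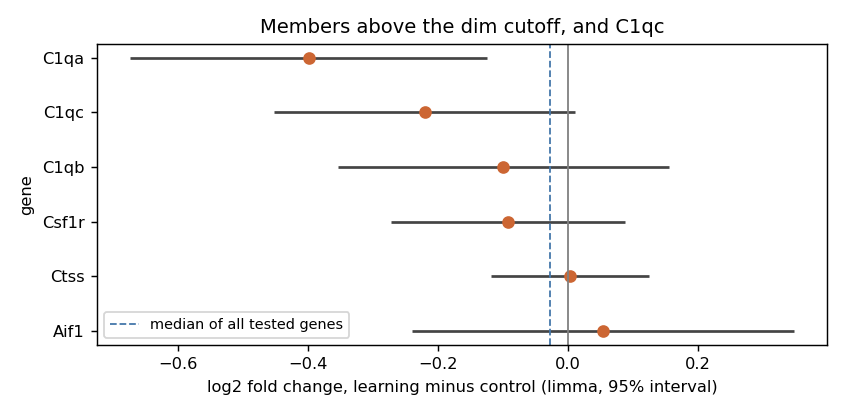
Log2 fold change, learning minus control (horizontal axis), of the 5 member probe sets above the dim cutoff and of C1qc, with unadjusted 95% intervals of limma. The solid line is 0 and the dashed line is the median of all tested genes. C1qa at -0.40 is the only gene whose interval leaves out 0, and its adjusted p is 0.102.

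Whether the members differed from each other in their response was asked for all 10 pairs of the 5 tested genes, with the difference between 2 genes taken within each array and the groups set against each other by two-sided exact permutation. This test was added after the values were seen. Of the 10 pairs, 1 passed after Benjamini-Hochberg adjustment over the 10: C1qa against Ctss. Ctss itself had a difference of 0.0034, so the pair mostly repeats the difference of C1qa, -0.40. That difference did not pass in limma over the 9520 tested probe sets (adjusted p = 0.102). The share of other gene pairs on the array that would pass was not tested. Ctss minus C1qa averaged 2.31 ± 0.20 in control and 2.72 ± 0.25 in learning arrays, a shift of 0.40 (exact p = 0.00408, adjusted p = 0.0408) in which all 7 learning animals lay above the control mean. That call held without control replicate 5 (0.46) and without learning replicate 1 (0.45) or 2 (0.44), and was lost without any of the other 11 arrays, where the highest adjusted p was 0.111. Csf1r minus C1qa (0.31, adjusted p = 0.0680) and C1qa minus Aif1 (-0.45, adjusted p = 0.0680) did not pass. Nor did C1qa minus C1qb (-0.30, exact p = 0.0431, adjusted p = 0.108). In each of these pairs the shift had C1qa lower against its partner in the learning group. Without control replicate 5 the pairs of C1qa with Csf1r and with Aif1 passed as well (exact test, adjusted p = 0.0389 and 0.0146), and without learning replicate 1 the pair with Csf1r did (adjusted p = 0.0146). The other 6 pairs, none of which holds C1qa, had shifts between -0.15 and 0.10 and adjusted p-values from 0.383 to 0.969.

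Levels of the members also varied from animal to animal within the groups. With each group's mean removed, Pearson correlations over the 14 arrays were positive for 9 of the 10 pairs, with a median of 0.39. Under permutation within groups 3 pairs had an unadjusted p under 0.05 and 0 passed after adjustment over the 10 pairs. The highest were those of Csf1r. With Ctss it had Pearson's r = 0.65 (p = 0.0193 by permutation, 0.0965 adjusted) and Spearman's rho = 0.62 (0.0295 by permutation, 0.178 adjusted). With C1qa it had r = 0.65 (p = 0.0191 by permutation, 0.0965 adjusted) and rho = 0.60 (0.0356 by permutation, 0.178 adjusted). Without the 2 arrays farthest from the median of the first gene these were 0.58 and 0.56. C1qa and C1qb had r = 0.53 (p = 0.0489 by permutation, 0.146 adjusted) and rho = 0.48 (0.0902 by permutation, 0.301 adjusted). Their r came to 0.59 when the 2 farthest arrays were dropped and to 0.34 when control replicate 5 was. Aif1 had r from -0.07 with Csf1r to 0.37 with C1qa, and Csf1r with C1qb had 0.20. Without control replicate 5, the r of Aif1 came to 0.61 with C1qa, the highest of the 10 pairs then, to 0.52 with C1qb and to 0.34 with Ctss, while r came to 0.27 for Ctss with C1qb and to -0.01 for Csf1r with C1qb. The order of the pairs thus changed with 1 array. Without its 2 farthest arrays, C1qa with Aif1 had 0.11. Some pairs also had opposite signs in the control and learning arrays. These were C1qa with Aif1 (-0.40 and 0.66), C1qb with Aif1 (-0.27 and 0.83) and Csf1r with C1qb (0.66 and -0.34). Ctss was likewise split with C1qb (0.82 and -0.04) and with Aif1 (-0.13 and 0.35). Learning replicate 1 had the highest level of both Aif1 and C1qa in its group.

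**Figure D4:**
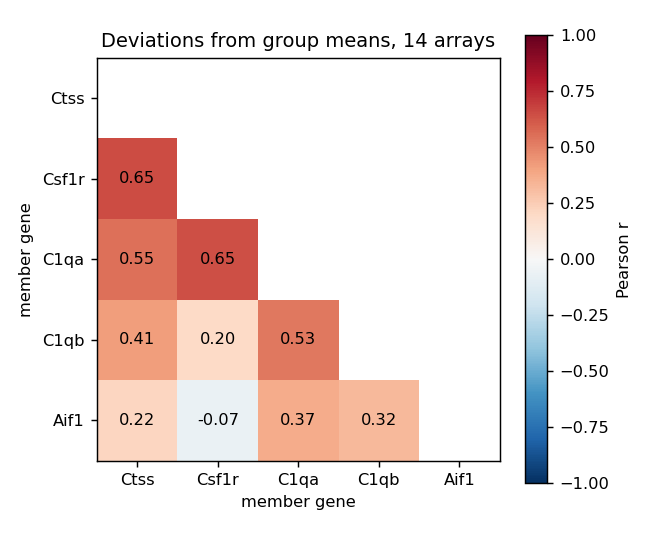
Pearson correlation between member genes over 14 arrays after each group's mean was removed, with genes on both axes and r as colour and number. Correlations among Ctss, Csf1r and C1qa lie between 0.55 and 0.65, and those of Aif1 between -0.07 and 0.37.

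The genes outside the members whose levels ran most like the members' mean were sought among 6831 genes, by the correlation of deviations from the group means over 14 arrays, as a description. They were Pdzrn3 (r = 0.87), the autophagy kinase Ulk1 (0.84), the glutamate dehydrogenase Glud1 (0.82), Wdr17 (0.79), the junction protein Jup (0.77) and the vitamin B12 carrier Tcn2 (0.74). Of these, Wdr17 was the only one called (-0.27, adjusted p = 0.0333), and Ulk1 had 0.00021. The third C1q chain, C1qc, came in at place 36 with r = 0.65. Other microglial genes lay further down, from Laptm5, a lysosomal membrane protein of leukocytes, at place 207 (0.51) to P2ry12 at place 1355 (0.24).

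None of 40 tested genes of 6 related lists passed in limma either, at their brightest probe sets, where 1.59% of 6836 genes were called higher and 0.98% lower. Before adjustment, 5 of the 40 had p under 0.05, a smaller share than the 18.6% of all 6836 genes. Their median difference was -0.06 with 32 of 40 below 0, and over all 6836 genes the median was -0.03 with 63.9% below 0.

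Of 29 listed microglial identity genes, 19 were on the array and 9 above the dim cutoff. All 9 lay below 0, with differences from -0.28 to -0.03 and a median of -0.13. Lyz2, the lysozyme of macrophages, had -0.28 (7.38 ± 0.18 against 7.66 ± 0.23, SE 0.10, adjusted p = 0.143) and was called without control replicate 6 (-0.34, adjusted p = 0.0475). Hexa, a lysosomal hexosaminidase subunit, had -0.13 (adjusted p = 0.281). P2ry12 and Tmem119, surface proteins of resting microglia that were picked after their values were seen, had -0.28 (SE 0.17, adjusted p = 0.373) and -0.16 (SE 0.11, adjusted p = 0.418). Dim genes of this list, among them Ptprc, Irf8, Cd68, Cd53 and Cd14, gave no reading.

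Of the complement cascade outside C1q, 12 of 21 listed genes were on the array and 10 of these were dim, C3 among them, the convergence point of the pathways, at 3.26 ± 0.38 in control and 3.01 ± 0.13 in learning animals. Both tested genes did not pass: Cfp, which encodes properdin, the stabiliser of the alternative pathway, had 0.09 (adjusted p = 0.224), and Masp1, a protease of the lectin pathway, had 0.04 (adjusted p = 0.824). Among complement regulators and receptors 6 of 14 genes on the array were tested and all 6 lay below 0, with a median of -0.04. Vtn, an inhibitor of the terminal complex, had -0.31 (SE 0.19, adjusted p = 0.385), Itgam, the alpha chain of complement receptor CR3 and also on the microglial list, had -0.10 (adjusted p = 0.288), Clu -0.05 and Cd59b, a shield against the terminal complex, -0.03.

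Partners of Cd74 and Ctss were measured through 13 tested genes of MHC class II and antigen processing, with a median of -0.06 and 9 of them below 0. Ctsz, a lysosomal protease, had -0.27 (4.18 ± 0.06 against 4.45 ± 0.32, adjusted p = 0.195), the cathepsin inhibitor Cst3 -0.06, Ctsb -0.03 and Mif, a ligand of Cd74, -0.07 (adjusted p = 0.321). Ligands and signalling partners of Csf1r and Cx3cr1 gave 6 tested genes with a median of -0.04. Cx3cl1, the fractalkine that neurons present to Cx3cr1, had -0.08 (10.38 ± 0.08 against 10.46 ± 0.05, SE 0.040, adjusted p = 0.293). Adam10, a protease that sheds fractalkine, had 0.27 (5.33 ± 0.12 against 5.06 ± 0.25, SE 0.097, adjusted p = 0.137), and the adaptor Grb2 had -0.03. Csf1 was dim. Of 24 genes of inflammatory activation on the array 19 were dim, including Tnf, Il1b, Il6 and Ccl2, and the 5 tested had a median of -0.10. The lipid carrier Apoe had -0.10 (SE 0.041, adjusted p = 0.190), Gpnmb -0.24 (adjusted p = 0.435) and the prostaglandin synthase Ptgs2 0.04 (adjusted p = 0.873).

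**Figure D5:**
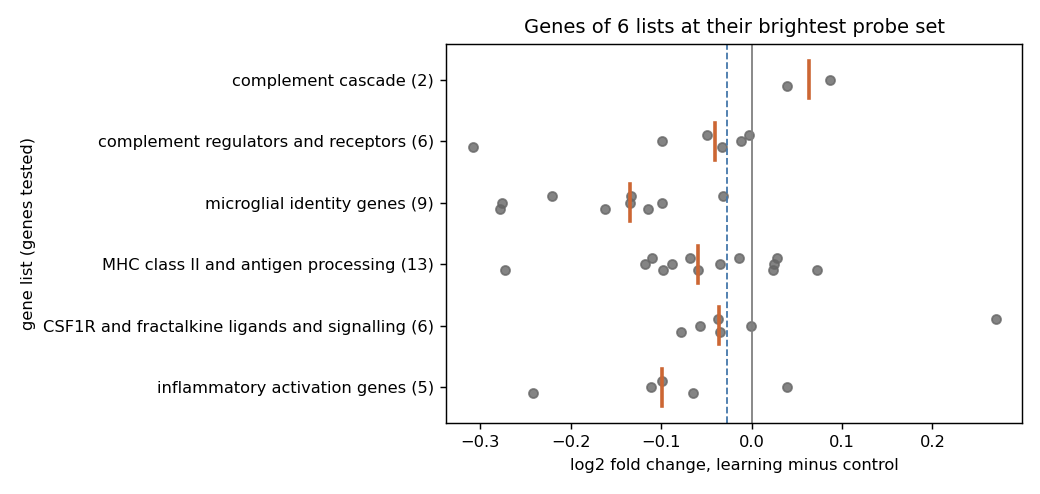
Log2 fold change, learning minus control (horizontal axis), of the tested genes of 6 lists at their brightest probe sets, 1 point per gene, with the number tested after each list's name. Short bars are list medians, the solid line is 0 and the dashed line is the median of all tested genes. The 9 microglial identity genes all lie below 0, with a median of -0.13, and no gene in the plot passed the adjusted threshold.

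Some other measures of the arrays differed between the groups, whereas C1qa itself did not pass in limma. By two-sided exact permutation tests adjusted over 10 marker lists, 3 choroid plexus genes averaged -0.94 (adjusted p = 0.0117) and 9 neuronal genes averaged 0.07 (adjusted p = 0.0321). Of the choroid plexus genes, Ttr had -2.09 (limma adjusted p = 0.0124), Igfbp2 -0.70 (adjusted p = 0.237) and Enpp2 -0.03 (adjusted p = 0.844), so Ttr carried most of the mean. The summed choroid plexus level ran from 9.35 to 10.35 (log2 of the linear sum) in control and from 9.04 to 9.41 in learning arrays, and the summed neuronal level from 14.77 to 14.88 and from 14.88 to 14.96. The 9 neuronal genes ran from -0.14 to 0.24, with 2 below 0 and 1 called higher in limma (adjusted p = 0.0333). The other 8 lists did not pass. Mean differences were -0.18 for 7 endothelial, -0.22 for 2 red cell, -0.02 for 10 astrocyte and -0.03 for 8 oligodendrocyte genes. The endothelial genes ran from -0.60 to 0.05, and 1 was called lower in limma (adjusted p = 0.0366). The 2 red cell genes had -0.46 and 0.02. Below 0 lay 9 of 10 astrocyte genes (median -0.06, highest 0.45) and 6 of 8 oligodendrocyte genes (median -0.08, highest 0.46). Mean differences were 0.08 for 4 dentate granule cell, 0.06 for 5 CA3 and 0.03 for 7 CA1 genes. The CA3 genes ran from -0.02 to 0.24 with a median of 0.01. The dentate mean came from Rasgrp1 (0.71, limma adjusted p = 0.00453), while Prox1 had -0.20, Calb1 -0.11 and Marcks -0.10, and the list's median was -0.10. The median of the CA1 list was also below 0, at -0.0037. For perivascular macrophages and blood leukocytes, cells that share many of the members, 10 of 12 genes were dim and the 2 others averaged 0.02. Spike-in controls were 0.24 higher in the learning group (exact p = 0.00117, adjusted p = 0.00408 over 7 measures), and the balance of dimmer against brighter probe sets of the same genes was 0.17 higher (exact p = 5.83e-04, the smallest possible, adjusted p = 0.00408). Control replicate 5, the lowest control for Ctss, Csf1r and the 3 C1q chains, had the highest ratio of 3' to 5' signal for Gapdh (0.64, log2, against 0.38 to 0.52 on the others) and for hexokinase (2.57 against 1.03 to 1.61). C1qa was refitted with the Gapdh or hexokinase 3' to 5' ratio, the spike-in level, the probe set balance or the dentate level as covariate. Its difference then lay between -0.57 and -0.37 and was not called in limma (adjusted p from 0.0691 to 0.436). The actin ratio, also highest on control replicate 5 (1.65), was not used as a covariate. With group means removed, the r of C1qa was 0.67 with the endothelial, 0.56 with the red cell and 0.51 with the choroid plexus level. It was 0.35 with the CA1, 0.20 with the astrocyte, 0.16 with the leukocyte and 0.03 with the CA3 level. With the oligodendrocyte, neuronal and dentate levels it was -0.01, -0.11 and -0.25. The part of the choroid plexus, neuronal and other cell type levels in the values of C1qa was not tested.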

How the data were processed

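The deposited table holds 1 column per array of log2 levels for 15923 probe sets, deposited by the authors and made with GCRMA (submitters' processing notes). That method adjusts for background with a model of probe sequence, then normalizes and summarises probe sets. No version or setting is given in the sources used here. That values are log2 was read from their range. GCRMA can compress differences near background. Animals were grouped, and numbered, by sample titles, which call them biological replicates. Depth has no meaning for arrays, so the number of arrays limits the precision.

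The array annotation named 1 gene for 12789 probe sets, and symbols were updated by Entrez ID through RefSeq GRCr8 (12754 matched). The 57 control probe sets and 6346 dim ones, with a mean under the 40th percentile, were left out. The other 9520 went into limma 3.58.1 under R 4.3.3 (lmFit, eBayes, no covariate), with Benjamini-Hochberg adjustment over the whole set. The script was tested on simulated data. Lists were read at the brightest probe set of each gene and described by counts and medians. From each pathway list the text names the 2 genes of lowest p, the 2 brightest and any called. Single values were compared by exact permutation in Python 3.11.15, and correlations by 100000 permutations within groups. RefSeq start regions were found for 6 of the 7 genes, Aif1 being the one without. The members and lists were chosen with earlier results of these data known. Alternatives were other dim filters, normalizations, variance models, covariates, the replicate number as a block and arrays left out. Replicate numbers are not said to mark a shared litter or day, and the deviations of same-numbered arrays correlated between -0.16 and 0.13, so they were not taken as pairs.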

Additional observations from a re-analysis of the deposited data

Results flagged for a closer look

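In 4 of 16 groups of 7 arrays, for the 8 probe sets of the members, 1 array lay apart from the rest by Dixon's criterion. For normally distributed values about 1 in 20 groups would, or 0.80 of 16. The share over all probe sets of the array was not tested, so the 4 cannot be read as a trait of these genes. All but the Aif1 flag of learning replicate 1 were at dim probe sets. The Aif1 level of learning replicate 1 was 5.91, with the next learning animal at 5.13 and the lowest at 4.79. For Cd74, which is dim, control replicate 3 had 4.41 with the other controls up to 3.35, and learning replicate 5 had 3.84 with the other learning animals up to 3.30. At the second, dim probe set of Aif1, learning replicate 3 had 1.12 against 1.15 to 1.16 in the rest of its group, a gap of no practical size.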

How the results depend on the processing

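The number of members called higher was 0 in every alternative fit. The number called lower was 0 except without control replicate 5, alone or together with learning replicate 1, where it was 1, C1qa (-0.53 without both, adjusted p = 0.0225). With 1 array left out at a time that number ran from 0 to 1. For C1qa these arrays were the lowest control (7.34) and the highest learning array (7.76), so leaving them out widens its difference by construction. Learning replicate 1 was not an unusual array as a whole, with the highest median correlation with the other arrays (0.9945). C1qa kept its sign in all 28 alternative fits, with differences from -0.57 to -0.31 and adjusted p from 0.0225 to 0.436, the highest with the probe set balance as covariate. That balance ran from -3.65 to -3.34 in control and from -3.30 to -3.20 in learning arrays. The groups did not overlap in it, so that fit could hardly separate it from the group and says little about any call. With the replicate block the adjusted p of C1qa was 0.0726, the array had 313 calls, and no call among the members changed. C1qb and Csf1r also kept their sign in all 28, Ctss in 16 of 28 and Aif1 in 24 of 27, and none of these was called in any. With 1 array left out, C1qb ran from -0.17 (without control replicate 5) to -0.03 (without control replicate 2), and Csf1r from -0.14 (without learning replicate 7) to -0.05 (without learning replicate 6). Aif1 ran from -0.08 (without learning replicate 1) to 0.11 (without learning replicate 6), and Ctss from -0.02 (without learning replicate 4) to 0.04 (without learning replicate 5). Covariates moved Aif1 further, to -0.34 with the spike-in level (limma adjusted p = 0.0761) and to 0.30 with the probe set balance (adjusted p = 0.679). Learning replicate 1, the highest array for Aif1, also had the highest spike-in level (10.43). The count over the whole array, 319, was 158 without a dim filter, and as covariates the Gapdh ratio gave 39, hexokinase 177, spike-in controls 91 and the probe set balance 0. It ran from 163 to 352 with 1 array left out. The list genes called were 0 with the mean of all probe sets of a gene, and ran from 0 to 1 with 1 array left out, Lyz2 being that gene. Pairs of members whose differences passed ran from 0 to 3 with 1 array left out, and correlated pairs that passed stayed at 0 without the 2 farthest arrays. The hexokinase, spike-in and balance covariates, the fit without 2 arrays and the test of pairs were chosen after seeing the data, and the causes of these shifts were not tested. With 7 arrays per group the intervals of the 5 tested members reach differences of 0.12 to 0.67 in size.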
